A study of Mus musculus with 96 samples.

Results

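The genes described here are 9 immediate early genes of 3 families: Egr1, Egr2 and Egr3, Nr4a1 and Nr4a2, and Ier2, Ier3, Ier5 and Ier5l. They were taken by symbol from a table of 23481 gene symbols and chosen by their measured counts in these same libraries, as families already seen to vary between the groups. Their levels and tests below therefore describe these libraries and are not independent evidence for the choice. Gene expression was measured in 96 libraries of macrophages grown from the bone marrow of wild-type male C57BL/6 mice 8 weeks of age, with MCSF-conditioned medium. The groups were 12, each with 8 libraries from 4 wells on each of 2 plates. NoStim cells got no lipopolysaccharide (LPS), the bacterial cell wall component sensed by macrophages, and no vehicle is named for them. The other 11 groups were all given LPS for 4 h after a pretreatment of 30 min with the vehicle DMSO or with one of 10 compounds. These were labelled Halofuginone, Tunicamycin, tBHQ, Torin, pGE2, Dexa, BrefA, Baflo, ZVAD and Caspase-1. No compound was given without LPS, and the sources used here give no doses. Wells are numbered below by plate and letter (2F is plate 2, well F). Nothing in the labels tells whether each well came from its own culture or animal, so the p-values measure only the spread between wells, which may be technical. Deviations of same-named wells of a group correlated between the 2 plates (mean r 0.233). Results on each plate alone may therefore not be independent repeats.

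Immediate early genes are transcribed within minutes of a stimulus from factors that are already in the cell, and their messages are usually short-lived. The Egr genes encode zinc finger transcription factors that bind GC-rich sites and are induced through serum response factor and the ERK kinases. The Nr4a genes encode orphan nuclear receptors that are strongly induced by cyclic AMP signalling and by inflammatory stimuli, and in macrophages they are known to restrain inflammatory genes. Ier3 encodes a regulator of cell survival induced by NF-kB, while Ier2, Ier5 and Ier5l encode related small proteins of the IER family. A sample lysed 4 h after LPS comes after the usual early peak of these genes.

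Promoter sequences from RefSeq (GRCm38.p6, the mm10 assembly) were matched by symbol for 6 of the 9 genes: Egr2, Nr4a1, Nr4a2, Ier3, Ier5 and Ier5l. Egr1, Egr3 and Ier2 had no entry. The bases just before the start are shown for Egr2, Nr4a1, Nr4a2 and Ier3, because those genes moved in different groups and their starts differ in the motifs they hold. Windows of 250 bases were searched on both strands for the cyclic AMP response element half-site TGACG, the Egr site GCGNGGGCG, the CArG box bound by serum response factor and the NF-kB site. Egr2 has several starts, and the one with the most matches among those whose window holds no exon base is shown. Capitals mark the matches (a half-site on the other strand reads CGTCA), no match of one motif overlapped a match of another, and bases in annotated exons (GENCODE M21) were left off.
Egr2 chr10:67537619-67537868 plus strand: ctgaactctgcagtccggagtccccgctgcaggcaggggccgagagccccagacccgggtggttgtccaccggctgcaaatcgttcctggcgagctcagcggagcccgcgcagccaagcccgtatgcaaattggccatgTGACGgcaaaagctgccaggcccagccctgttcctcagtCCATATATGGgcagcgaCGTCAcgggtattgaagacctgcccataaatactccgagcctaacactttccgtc
Nr4a1 chr15:101266596-101266845 plus strand: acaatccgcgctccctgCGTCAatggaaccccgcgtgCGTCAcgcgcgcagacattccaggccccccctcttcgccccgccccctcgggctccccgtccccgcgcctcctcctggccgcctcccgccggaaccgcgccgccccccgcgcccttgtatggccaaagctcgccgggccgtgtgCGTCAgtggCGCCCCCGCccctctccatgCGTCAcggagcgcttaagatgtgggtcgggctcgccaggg
Nr4a2 chr2:57124004-57124253 minus strand: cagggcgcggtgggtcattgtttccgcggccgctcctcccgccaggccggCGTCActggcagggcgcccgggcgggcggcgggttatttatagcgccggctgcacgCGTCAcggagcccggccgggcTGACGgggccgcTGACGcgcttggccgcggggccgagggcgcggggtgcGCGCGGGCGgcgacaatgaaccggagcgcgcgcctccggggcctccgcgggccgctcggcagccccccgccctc
Ier3 chr17:35821463-35821683 plus strand: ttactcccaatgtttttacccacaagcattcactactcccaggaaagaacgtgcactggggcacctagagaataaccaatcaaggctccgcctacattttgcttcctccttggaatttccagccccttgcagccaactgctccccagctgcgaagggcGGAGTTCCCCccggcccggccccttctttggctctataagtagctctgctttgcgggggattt
The Egr2 window held 1 CArG box, found in 1.47% of the 32851 windows of RefSeq starts, and 2 half-sites TGACG. Nr4a1 and Nr4a2 each held 4 half-sites and 1 Egr site. At least 1 half-site was found in 17.8% of all windows and 4 or more in 0.137%, and the Egr site in 4.7%. The cutoff of 4 is the number these 2 genes held, and the windows were not matched for base content. How rare such windows are among starts of like base content was not tested. The Ier3 window held 1 NF-kB site, found in 3.9% of windows, and none of the 4 motifs was found in the windows of Ier5 and Ier5l. These are letter matches and not measured binding sites.

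Library totals ranged from 80196 to 379198 counts with a median of 257984.5, so 1 count was worth about 3.88 CPM (counts scaled to a library total of 1e+06) at the median. Halofuginone libraries were the shallowest, at 80196 to 136526 counts against 148284 to 379198 elsewhere, and 44.7% ± 3.2 (SD, n = 8) of their counts were Rn45s, the ribosomal RNA precursor, against 19.4% ± 4.64 in DMSO libraries. Of the 12 macrophage markers listed, 11 were in the table and each had counts, summing to between 1810 and 6590 CPM per library. They summed to 1810 to 2180 CPM in Halofuginone libraries, where Mertk was at 0, and to 3080 to 4310 CPM in DMSO libraries. Markers of some other cell types summed to at most 24 CPM for neutrophils (5 of 6 in the table, Elane at 0), 28.2 for T cells (4 of 5, Cd3e and Cd3g at 0), 62 for dendritic cells (4 of 4) and 68.2 for stromal cells (5 of 5). The part of depth, Rn45s share and marker level in the results below was not tested except where a value is given.

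The 9 genes differed widely in abundance. Ier5, with 4277 counts in all, and Ier3, with 3393, had counts in all 96 libraries. Egr1 had 1199 counts, Ier2 897, Egr2 458, Ier5l 286, Nr4a1 235, Nr4a2 140 and Egr3 22. Tests used only genes with at least 38.8 CPM in 8 or more libraries, which left 4963 genes and 7 of the 9. Nr4a2 and Egr3 were not tested, since no library of theirs reached that level. Egr2 and Nr4a1 passed through Halofuginone: outside it only 4 and 3 libraries reached 38.8 CPM, so both had to differ in that group. The 3 libraries of Nr4a1 were all NoStim. Ier5l passed through 7 Halofuginone, 5 NoStim and 3 tBHQ libraries, with 0 in the other groups. Tests of Nr4a1 and Ier5l that involve those groups are therefore not independent of the filter. A gene is called higher or lower where its adjusted p in a comparison was under 0.05.

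**Figure D1:**
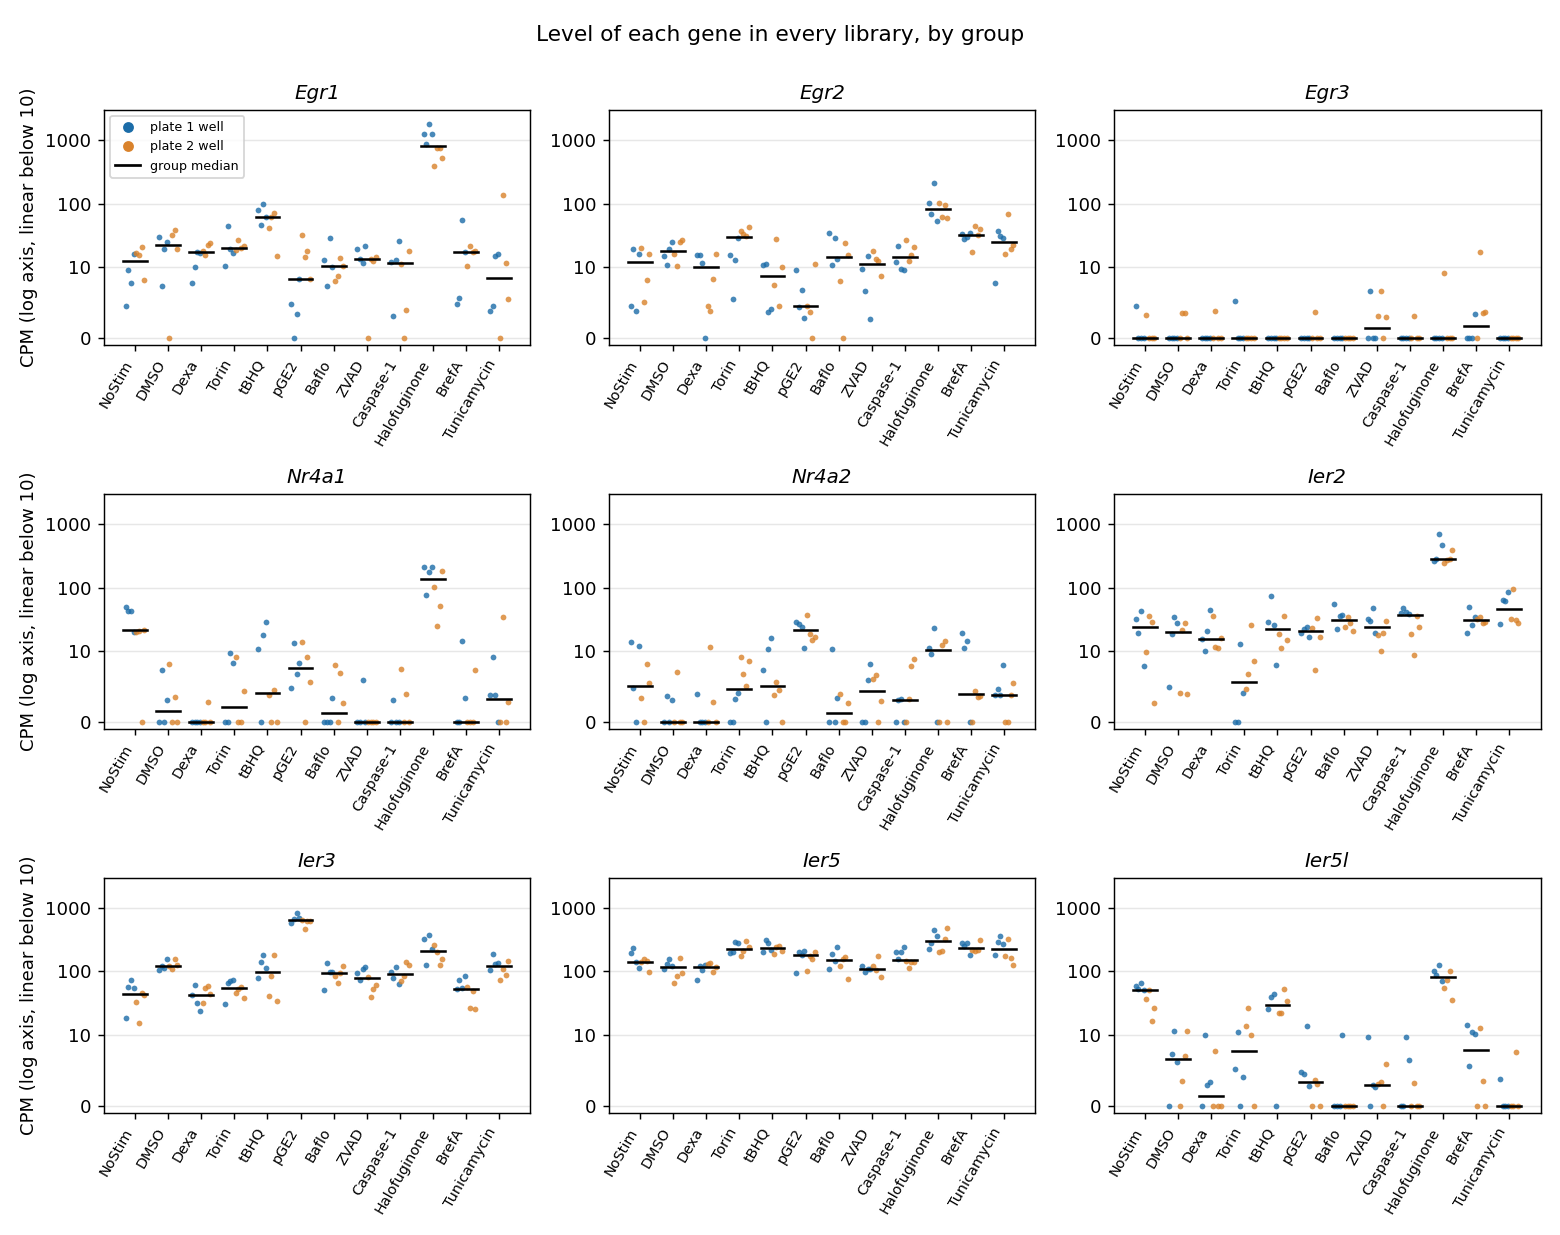
Level of each of the 9 genes in every library, in CPM on an axis that is logarithmic above 10 and linear below it, with libraries coloured by plate and a line at each group's median. Egr1 and Ier2 sit apart from every other group in Halofuginone wells, Ier3 sits apart in pGE2 wells, and Egr3 is at or near 0 throughout.

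The LPS comparison set DMSO wells with 4 h of LPS against NoStim wells. On each plate the NoStim wells had letters A to D and all wells with LPS had letters E to H. LPS, vehicle and well letter therefore cannot be told apart in it, or in the comparisons of compounds with NoStim. Ier3 rose, Nr4a1 and Ier5l fell, and Egr1, Egr2, Ier2 and Ier5 did not pass. Of the 7 tested genes 1 was called higher and 2 lower, where 36.1% of all 4963 genes were called, 19.5% higher and 16.6% lower. As the libraries are bulk samples, fewer cells of a type and less RNA per cell cannot be told apart. Ier3 was at 15.5 CPM in its lowest NoStim library, 44.3 at the median and 73.2 at the highest, and at 104, 122 and 159 in DMSO libraries. Every DMSO library was above every NoStim library, and the fitted log2 fold change was 1.83 ± 0.23 (SE, adjusted p = 2.71e-11). Ranges separated in this direction for 6.15% of all genes.

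Nr4a1, an orphan nuclear receptor, was at 0, 21.2 and 50.3 CPM (lowest, median, highest) without LPS and at 0, 1.55 and 8.12 in DMSO wells with LPS. Apart from well 2C, which had no Nr4a1 count, each NoStim library was above all DMSO libraries. The whole DMSO group held 6 Nr4a1 counts against 54 in NoStim, and Nr4a1 fell by 2.74 ± 0.59 on the log2 scale (adjusted p = 5.82e-05). Ier5l fell likewise, from 16.4, 51.6 and 65.5 CPM to 0, 6.62 and 11.7 CPM, with no overlap between the groups, as for 5.82% of all genes in this direction (log2 fold change -2.46 ± 0.44, adjusted p = 1.14e-06). Egr1 was at 12.3 ± 5.53 CPM without LPS and 21.4 ± 12.9 with it (SD, n = 8), and this did not pass (1.07 ± 0.56, adjusted p = 0.132). Egr2 did not pass either (0.88 ± 0.40, adjusted p = 0.0771), although it passed without NoStim 2A (1.04, adjusted p = 0.0489; 0.0703 to 0.415 over the other alternatives). With RLE in place of TMM scaling the median of all genes moved from -0.04 to -0.19 and the share of calls that were higher from 54.1% to 38.4%, while Ier3 (1.68), Nr4a1 (-2.89) and Ier5l (-2.61) kept their direction.

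Within plates, Ier3 changed by 1.57 on plate 1 and 2.05 on plate 2, and Ier5l by -2.72 and -2.18 (log2, each passing). Nr4a1 changed by -3.24 on plate 1 (adjusted p = 0.000283) and was under the count filter on plate 2, where its means were 15.6 CPM without LPS and 2.91 CPM with it.

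Halofuginone, a compound known to inhibit prolyl-tRNA synthetase, gave the highest mean of the 12 groups for Egr1, Egr2, Nr4a1, Ier2, Ier5 and Ier5l. Each of the 7 tested genes was called higher than in DMSO wells, where 40.3% of all genes were called and 15.3% were called higher. Nothing is read from that count, since the choice of genes and, for Egr2, Nr4a1 and Ier5l, the filter used these libraries. Libraries of Egr1, Egr2, Nr4a1, Ier2, Ier5 and Ier5l did not overlap with DMSO, all being higher. Among all genes 1.15% had all Halofuginone libraries higher in CPM.

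Egr1 showed the widest range. It was at 0, 22.1 and 38.8 CPM (lowest, median, highest) in DMSO libraries and at 397, 813 and 1795 CPM in Halofuginone libraries, a fitted log2 fold change of 5.88 ± 0.34 (adjusted p = 9.08e-27). The Halofuginone libraries held 743 of the 1199 Egr1 counts, 62% of them, with 3.3% of the counts of all genes. Raw counts were therefore higher too, at 43 to 154 per library against 0 to 11 in DMSO. The means were 1290 CPM on plate 1 and 598 on plate 2, and the change was 6.38 and 5.17 within them (adjusted p = 2.08e-30 and 4.06e-10). With Rn45s and Lars2 taken out of the totals, the mean was 1870 CPM against 27.7 in DMSO.

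Egr2, a zinc finger factor of the same family, was at 10.6, 17.8 and 27.2 CPM in DMSO libraries and at 53.5, 81.4 and 210 in Halofuginone libraries (2.78 ± 0.33, adjusted p = 2.18e-12). Its highest Halofuginone library, 1G, held 18 counts and the lowest 5. Egr3 stayed near 0, with 1 count in the Halofuginone group. The shallow libraries set a limit there, because 3 counts over the whole group would be 3.75 CPM. Egr4, a family member outside the chosen set, had 25 counts in all, 17 of them in Halofuginone libraries.

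Nr4a1 held 101 counts in Halofuginone libraries and 6 in DMSO libraries. Its levels were 24.9, 138 and 214 CPM (lowest, median, highest) against 0, 1.55 and 8.12, so that all Halofuginone libraries were above all DMSO libraries (5.77 ± 0.49, adjusted p = 1.75e-20). Nr4a2 had 7 counts in the group and 4 in DMSO libraries, with 8.91 ± 8.42 CPM against 1.73 ± 2.65. In a fit with no count filter Nr4a2 did not pass (2.15 ± 0.87, adjusted p = 0.0813).

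Among the Ier genes, Ier2 rose from 3.89, 19.8 and 35 CPM in DMSO wells to 240, 283 and 699 CPM (4.73 ± 0.27, adjusted p = 1.18e-32). Ier5l rose from 0, 6.62 and 11.7 CPM to 35.9, 80.8 and 128 CPM (4.16 ± 0.45, adjusted p = 1.05e-14). Both ranges were clear of DMSO. Ier5 was already abundant at 116 ± 35.3 CPM and reached 320 ± 111 (1.95 ± 0.18, adjusted p = 2.15e-18). Ier3 went from 126 ± 20.1 to 223 ± 91.2 CPM (1.28 ± 0.21, adjusted p = 3.15e-07), and its ranges overlapped. For Ier3 and Ier5 the raw counts per library were not above those of DMSO wells, at 13 to 32 against 21 to 50 for Ier3 and 17 to 45 against 16 to 47 for Ier5, so their calls rest on the scaling for depth. TMM further scaled Halofuginone libraries by a median factor of 0.691. With RLE scaling all 7 stayed higher, Ier3 at 1.33 and Ier5 at 2.00, and with Rn45s and Lars2 left out at 1.32 and 1.99.

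**Figure D2:**
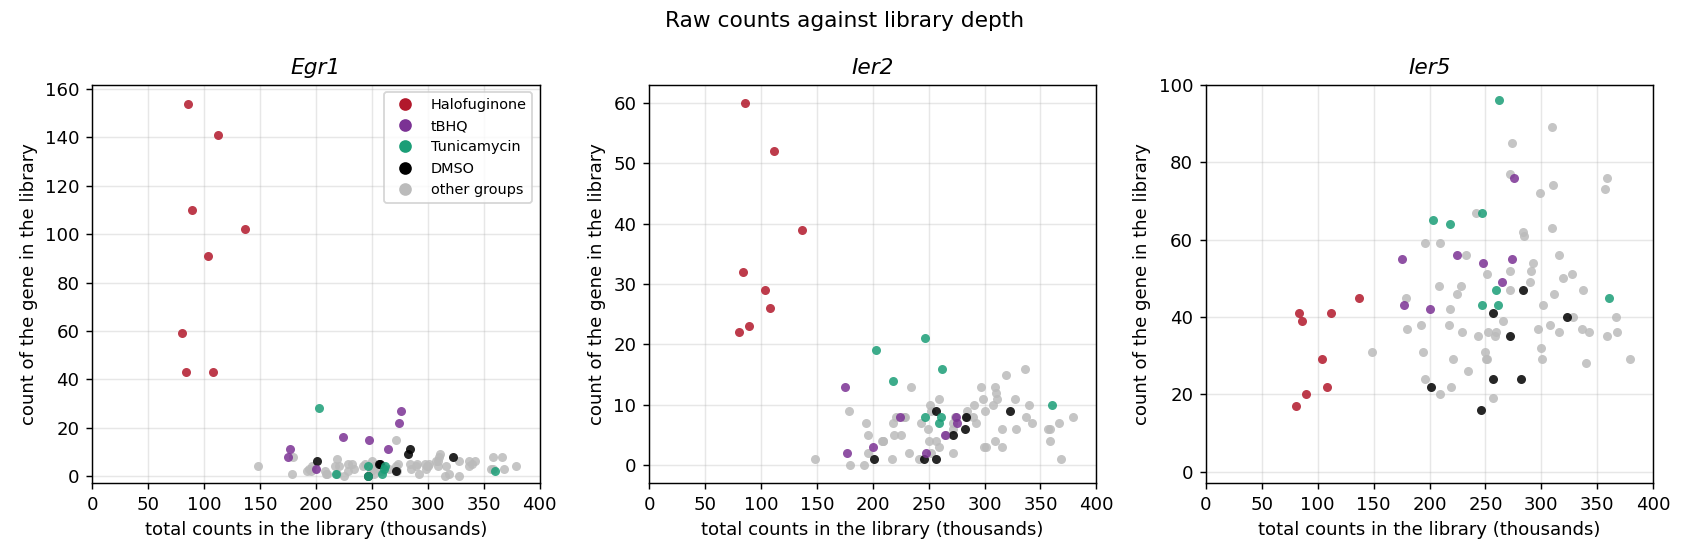
Raw count of Egr1, Ier2 and Ier5 in each of the 96 libraries against the total count of the library, both on linear axes. Halofuginone libraries are the 8 at the left: for Egr1 they hold 43 to 154 counts and for Ier2 22 to 60, above DMSO libraries of greater depth, while for Ier5 their 17 to 45 counts overlap with those of DMSO.

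tBHQ with LPS differed from DMSO with LPS in 5 of the 7 tested genes, where 36.4% of all genes were called. Ier5l, Egr1 and Ier5 rose, where 17.3% of all genes were called higher, and Egr2 and Ier3 fell, where 19.1% were called lower. Ier5l was at 0, 30.2 and 53.5 CPM (lowest, median, highest) against 0, 6.62 and 11.7 in DMSO (1.98 ± 0.48, adjusted p = 0.000344). Apart from well 1H, which had no Ier5l count, each tBHQ library was above all DMSO libraries. Egr1 was at 15, 61.3 and 97.9 CPM against 0, 22.1 and 38.8, with 7 of 8 tBHQ libraries above all of DMSO (1.21 ± 0.42, adjusted p = 0.0185). Ier5 reached 237 ± 42.5 CPM, again clear of DMSO (0.77 ± 0.17, adjusted p = 7.95e-05), as were 5.56% of all genes.

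Egr2 fell in tBHQ wells from 18.6 ± 6.44 to 10 ± 7.99 CPM, with ranges that overlapped (-1.20 ± 0.44, adjusted p = 0.0218). Ier3 went from 126 ± 20.1 to 108 ± 57.6 CPM (-0.51 ± 0.21, adjusted p = 0.0447). Ier5 and Ier5l passed on each plate alone (Ier5 0.70 and 0.82, Ier5l 1.72 and 2.20). Egr1 passed on plate 1 (1.61, adjusted p = 0.00125) and not on plate 2 (0.74, adjusted p = 0.473), and without the count filter it did not pass (1.13, adjusted p = 0.0688; range over the alternatives 0.00125 to 0.473). Egr2 missed the threshold on each plate (-1.47 and -0.99, adjusted p = 0.0968 and 0.254) and without tBHQ 1G, 1H or 2G or DMSO 1H or 2H (-1.10 to -1.04, adjusted p = 0.0513 to 0.0606; range over the alternatives 0.0186 to 0.254). Ier3 passed in 5 of 12 alternatives (adjusted p = 0.0133 to 0.662), missing on plate 1 (-0.19) and with RLE scaling (-0.36), and it missed without any 1 of tBHQ 1E, 1H, 2E, 2F or 2H or DMSO 1E, 1H, 2E, 2F, 2G or 2H (-0.51 to -0.39, adjusted p = 0.052 to 0.134). RLE moved the median of all genes from 0.04 to 0.19 in this comparison and the share of calls that were higher from 47.5% to 61.9%.

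pGE2 wells stood out for Ier3 and Nr4a2. Ier3, the survival regulator, was at 471, 635 and 842 CPM (lowest, median, highest) against 104, 122 and 159 in DMSO. It was 2.26 ± 0.18 higher on the log2 scale (adjusted p = 2.91e-21), with no overlap, as for 2.42% of all genes in this direction. Its pGE2 libraries were also above all libraries of Halofuginone, the group with the next highest mean. Within plates the change was 2.40 and 2.12 (adjusted p = 1.54e-14 and 5.01e-10). Markers of macrophages summed to 4240 to 6590 CPM in pGE2 libraries and 3080 to 4310 in DMSO libraries, those of neutrophils to 2.8 to 24 and 0 to 15.6 (Elane at 0 in both) and those of dendritic cells to 28 to 48.9 and 9.94 to 38.9 (Flt3 and Zbtb46 at 0 in both), and their part in the result was not tested. Ier3 and Egr2 were the 2 called genes of 7, where 11.2% of all genes were called.

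Nr4a2, an orphan nuclear receptor, had 47 of its 140 counts in pGE2 libraries, 4 to 8 in each. Levels were 11.2, 21.2 and 36.5 CPM (lowest, median, highest) against 0, 0 and 7.09 in DMSO, and all pGE2 libraries were above all DMSO libraries. Plates were alike in this, with means of 22.6 and 21.8 CPM against 1.69 and 1.77 in DMSO. The share of 2.42% with no overlap covers only the 4963 tested genes. Nr4a2 was not among those, and the DMSO group held 4 Nr4a2 counts. In the fit without the count filter, the only one that held Nr4a2, it was 3.17 ± 0.61 higher than in DMSO (adjusted p = 2.12e-05) and 2.06 ± 0.50 higher than in NoStim (adjusted p = 0.000694). Nr4a1, its relative, was at 0, 7.61 and 13.7 CPM and did not pass (1.23 ± 0.73, adjusted p = 0.33). Nr4a3, the remaining family member and not in the chosen set, had 79 counts in all, 11 of them in pGE2 and 5 in DMSO libraries.

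Egr2 fell in pGE2 wells, to 0, 4.51 and 11.2 CPM from 10.6, 17.8 and 27.2 (-1.80 ± 0.47, adjusted p = 0.00261). Ranges overlapped slightly, and on each plate alone it missed the threshold (-1.68 and -1.92, adjusted p = 0.145 and 0.0756; range over the alternatives 0.00222 to 0.145). Egr1 was at 11.2 ± 10.3 CPM and did not pass in the whole set (-0.99 ± 0.56, adjusted p = 0.301), but passed on plate 1 (-2.08, adjusted p = 0.04; range over the alternatives 0.04 to 0.879). Ier5 was just over the threshold (0.47 ± 0.17, adjusted p = 0.0561), and passed without pGE2 1E or 2E or DMSO 1G or 2G (0.54 to 0.58, adjusted p = 0.0181 to 0.0355) and in 5 of 12 other alternatives (0.0257 to 0.463).

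**Figure D3:**
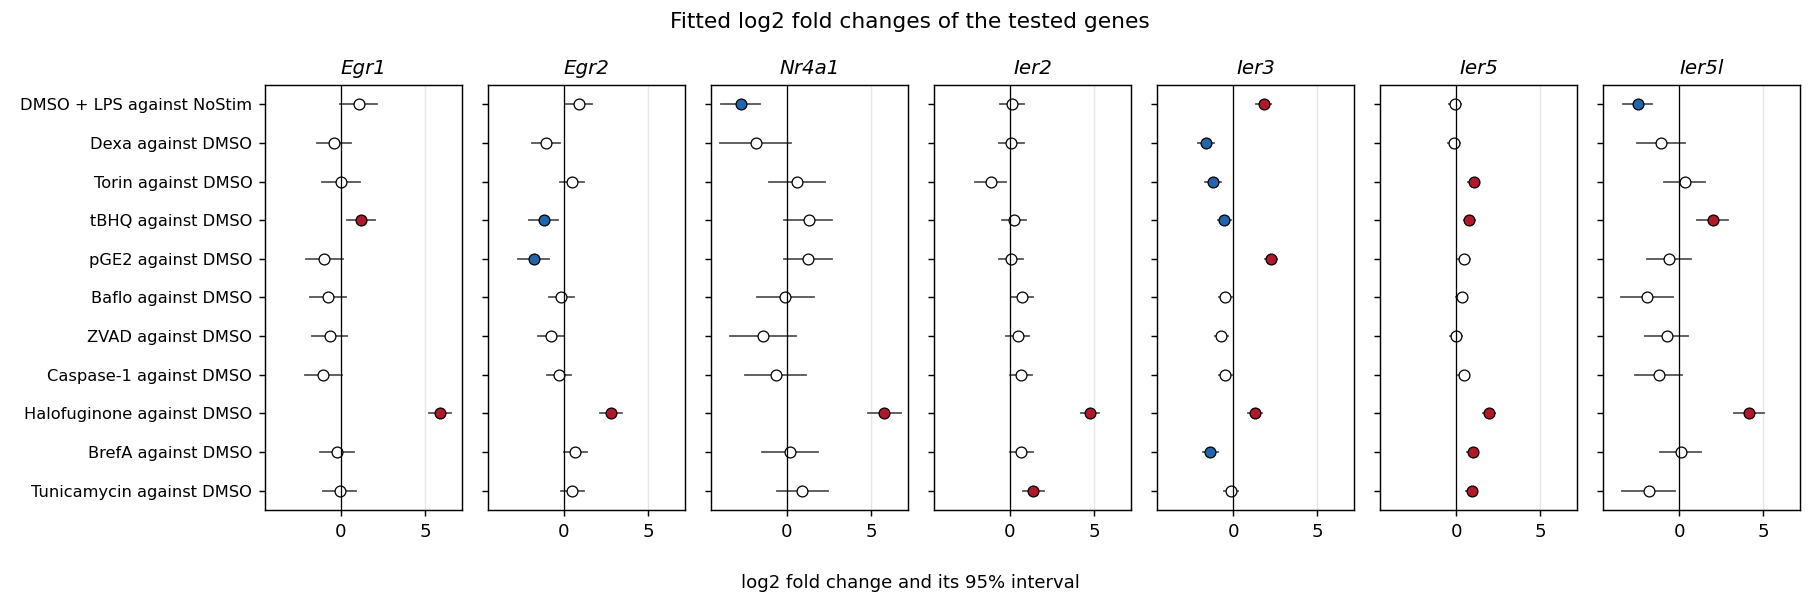
Log2 fold change of each of the 7 tested genes (columns) in the comparison of LPS and in the 10 compound comparisons against DMSO (rows), with the 95% interval as a line. Filled points were called (red higher, blue lower) and open points were not; Halofuginone has filled red points for all 7 genes, and Ier3 has filled points on both sides of 0.

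Of the other 7 compounds, Ier3 was called with 3 and Ier5 with 3. Ier3 fell with Dexa (-1.60 ± 0.23, adjusted p = 5.66e-08), Torin (-1.19 ± 0.23, adjusted p = 2.71e-05) and BrefA (-1.35 ± 0.23, adjusted p = 5.98e-07). Its levels were 23.6, 43.3 and 61.3 CPM (lowest, median, highest) with Dexa, 31.2, 55 and 74.5 with Torin and 25.6, 53.8 and 86.1 with BrefA. All were under the lowest DMSO library, at 104, as were 0.383%, 1.27% and 3.22% of all genes in the 3 comparisons. Against NoStim, at 15.5, 44.3 and 73.2 CPM, Ier3 did not pass in any of the 3 (Dexa 0.23 ± 0.27, Torin 0.63 ± 0.27, BrefA 0.48 ± 0.26). With Torin it passed against NoStim in 3 of 11 alternatives (adjusted p = 0.0279 to 0.268) and without NoStim 1C or 2D or Torin 1E (0.67 to 0.73, adjusted p = 0.0318 to 0.0428).

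Ier5 rose with Torin (1.04 ± 0.17, adjusted p = 3.67e-07), BrefA (0.98 ± 0.17, adjusted p = 7.02e-07) and Tunicamycin (0.94 ± 0.17, adjusted p = 4.05e-05). Its levels were 175, 225 and 301 CPM with Torin and 179, 235 and 310 with BrefA, clear of the DMSO range of 65 to 166, as were 2.9% and 2.46% of all genes in this direction. Tunicamycin, at 125 to 366 CPM, overlapped with it. Of the 7 tested genes, only Ier3 was called with Dexa (3.57% of all genes were called). Only Ier3 and Ier5 were called with Torin and BrefA (16.7% and 17.3%), and only Ier2 and Ier5 with Tunicamycin (4.37%). Genes that were not called may still differ. Ier2 was also called with Torin, lower, once well 2G of Torin was left out (-1.62, adjusted p = 0.0206; 0.0634 to 0.844 over the other alternatives). For Ier3 with Dexa, Torin and BrefA and Ier5 with Torin and BrefA the change passed on each plate alone.

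Ier2 was at 27, 46.7 and 93.5 CPM (lowest, median, highest) with Tunicamycin, a blocker of protein N-glycosylation, against 3.89, 19.8 and 35 in DMSO (1.38 ± 0.32, adjusted p = 0.00343). On plate 2 alone neither Ier2 (1.45, adjusted p = 0.346; range over the alternatives 0.00125 to 0.346) nor Ier5 (0.82, adjusted p = 0.219; range 6.59e-06 to 0.219) passed, with changes close to those of the whole set. Well 2F of Tunicamycin stood apart for Egr1, at 138 CPM from 28 counts against 0 to 16.2 CPM in the other wells, and for Nr4a1, at 34.5 CPM from 7 counts against 0 to 9.17. Neither gene was called with that well (Egr1 -0.06, adjusted p = 0.97) or without it (Egr1 -1.43, adjusted p = 0.0798, the lowest over the alternatives; Nr4a1 0.92 with it and -0.12 without it). Without that well Ier2 (1.21, adjusted p = 0.0143) and Ier5 (0.87, adjusted p = 0.00029) stayed called.

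Baflo, ZVAD and Caspase-1 wells gave 0 calls among the 7 tested genes in edgeR. DESeq2 called 0 as well, though it gave no adjusted p for any of them with Baflo and for Egr2, Nr4a1 and Ier5l with Caspase-1. Of all genes, edgeR called 0% with Baflo, 0% with ZVAD and 2.9% with Caspase-1. At an unadjusted p under 0.05 there were 3 of the 7 genes with Baflo, 1 with ZVAD and 2 with Caspase-1. The Ier3 estimates were -0.46 (95% interval -0.86 to -0.06) with Baflo, -0.69 (-1.09 to -0.29) with ZVAD and -0.45 (-0.85 to -0.06) with Caspase-1. Under RLE scaling the share of Caspase-1 calls that were higher went from 47.9% to 59.3% over all genes.

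All compounds were also set against NoStim, to see whether each level lay with the unstimulated cells or with LPS. Of 70 pairs of a tested gene and a compound, 41 were called. By compound, with the share of all genes called, they were 4 with tBHQ (8.3%), 4 with Baflo (34%), 4 with pGE2 (34.2%) and 2 with Dexa (35.6%). There were 3 with Caspase-1 (35.6%), 6 with Tunicamycin (36.3%) and 3 with ZVAD (36.9%). The others were 4 with BrefA (37.3%), 4 with Torin (40.4%) and 7 with Halofuginone (54.2%). DMSO and NoStim wells are each shared by 11 of the comparisons. With RLE scaling, the median of all genes moved by -0.16 to -0.12 in the 8 comparisons other than tBHQ and Halofuginone, and the share of calls that were higher went from between 52.8% and 55.4% to between 39.2% and 42.5%. Nr4a1 was called lower than in NoStim with each compound other than Halofuginone, where it was higher (3.03 ± 0.35). With tBHQ that call (-1.47 ± 0.48, adjusted p = 0.0386) was lost in DESeq2 (-1.61, adjusted p = 0.106) and on plate 1 (-1.22, adjusted p = 0.185; range over the alternatives 0.0229 to 0.185). It was also lost without any 1 of NoStim 1A, 1B, 1C or 2D or tBHQ 1E, 1F, 2E, 2F, 2G or 2H (-1.49 to -1.32, adjusted p = 0.0531 to 0.0825). Nr4a1 had 1 count in the whole Dexa group and 2 in the ZVAD group, but DMSO wells with LPS held only 6 and Caspase-1 wells 4. Neither Dexa (-1.86 ± 1.08) nor ZVAD (-1.42 ± 0.99) was called against DMSO for Nr4a1.

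Ier5l was called lower than in NoStim with Dexa, Torin, pGE2, Baflo, ZVAD, Caspase-1, BrefA and Tunicamycin. With Torin that call was lost on plate 2 alone (-1.18, adjusted p = 0.213, against -3.28 on plate 1; range over the alternatives 3.67e-06 to 0.213). Its libraries in 7 of these groups, all but Torin, were below every NoStim library, as were 4.57% of all genes with Dexa, 5.56% with pGE2, 5.26% with Baflo, 6.13% with ZVAD, 5.5% with Caspase-1, 4.94% with BrefA and 4.25% with Tunicamycin. Only 3 Ier5l counts each were found in the Baflo and Tunicamycin groups, against 89 in NoStim. tBHQ did not pass against NoStim (-0.49 ± 0.34, 95% interval -1.15 to 0.17), and Halofuginone was higher (1.69 ± 0.34, adjusted p = 7.84e-06). Egr1 was called higher than in NoStim with tBHQ (2.28 ± 0.47, adjusted p = 0.000256) and Halofuginone (6.94 ± 0.37, adjusted p = 7.59e-30) and with no other compound. The tBHQ call was lost on plate 2 alone (1.62, adjusted p = 0.316, against 2.94 on plate 1; range over the alternatives 1.69e-06 to 0.316). Ier3 was called higher with tBHQ, pGE2, Baflo, ZVAD, Caspase-1, Halofuginone and Tunicamycin. Ier5 was higher with Torin, tBHQ, pGE2, Halofuginone, BrefA and Tunicamycin, and Ier2 with Baflo, Halofuginone and Tunicamycin. Ier5 with pGE2 (adjusted p = 0.0472) passed in 2 of 11 alternatives and Ier2 with Baflo (0.0442) in 5 of 10. With tBHQ, Ier3 and Ier5 missed on plate 2 alone (adjusted p = 0.057 and 0.138). Egr2 was called higher with Torin, BrefA, Tunicamycin and Halofuginone, at 1.34, 1.56, 1.37 and 3.67. The Torin call was lost on plate 1 alone (0.86, adjusted p = 0.314; range over the alternatives 0.003 to 0.314) and the Tunicamycin call on plate 2 alone (1.27, adjusted p = 0.0757; range 0.00156 to 0.0757).

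In the order of group means, few neighbours were apart. The Egr1 order was led by Halofuginone (944 CPM) and tBHQ (59.3), which did not overlap, followed by Tunicamycin, Torin and DMSO at 24.4, 22.3 and 21.4 CPM and ended by Caspase-1 at 10.9. Halofuginone also did not overlap with the next group for Egr2 (BrefA, at 32.3 CPM) and Ier2 (Tunicamycin, at 52.7), nor did pGE2 with Halofuginone for Ier3. For Egr2, however, Tunicamycin, which follows BrefA in the order, reached 68.9 CPM and overlapped with Halofuginone, whose lowest library was at 53.5. All other neighbours in the orders of the 9 genes overlapped in their ranges. For Nr4a1 the order was Halofuginone (129 CPM), NoStim (27.3) and tBHQ (8.2), and for Ier5l it was Halofuginone (81.9), NoStim (45.1) and tBHQ (30.3). The place of tBHQ for Nr4a1 was narrow, as pGE2 followed at 7.72 CPM. Its Nr4a1 mean in tBHQ wells was 14.3 CPM on plate 1 and 2.06 on plate 2. Egr3 was highest with BrefA, at 3.52 ± 5.92 CPM from 7 counts, 4 of them in well 2F, and it had no count with tBHQ, Baflo or Tunicamycin, where 3 counts over the group would be 1.63, 1.33 and 1.46 CPM.

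Whether the genes moved together was described with Pearson's r over the 12 group means of log2 CPM, with no test, since the 9 genes share the same libraries and their depths. Egr1 and Nr4a1 had r = 0.84 over 12 groups and 0.00 over the 11 without Halofuginone, and Egr1 and Ier2 0.82 and -0.26. Those likenesses rested on Halofuginone. Nr4a1 and Ier5l had 0.88 and 0.79, and Nr4a2 and Ier3 had 0.72 and 0.71, so these values stayed high without it. Of the 11 groups without Halofuginone, NoStim was the highest for both Nr4a1 and Ier5l. Nr4a1 was at 27.3 CPM there against 8.2 in tBHQ, the next group, and Ier5l at 45.1 against 30.3. Nr4a2 had only 140 counts in all, and pGE2 is the highest group for both genes of that pair. How far the r of Nr4a2 and Ier3 rests on pGE2, and that of Nr4a1 and Ier5l on NoStim, was not tested.

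**Figure D4:**
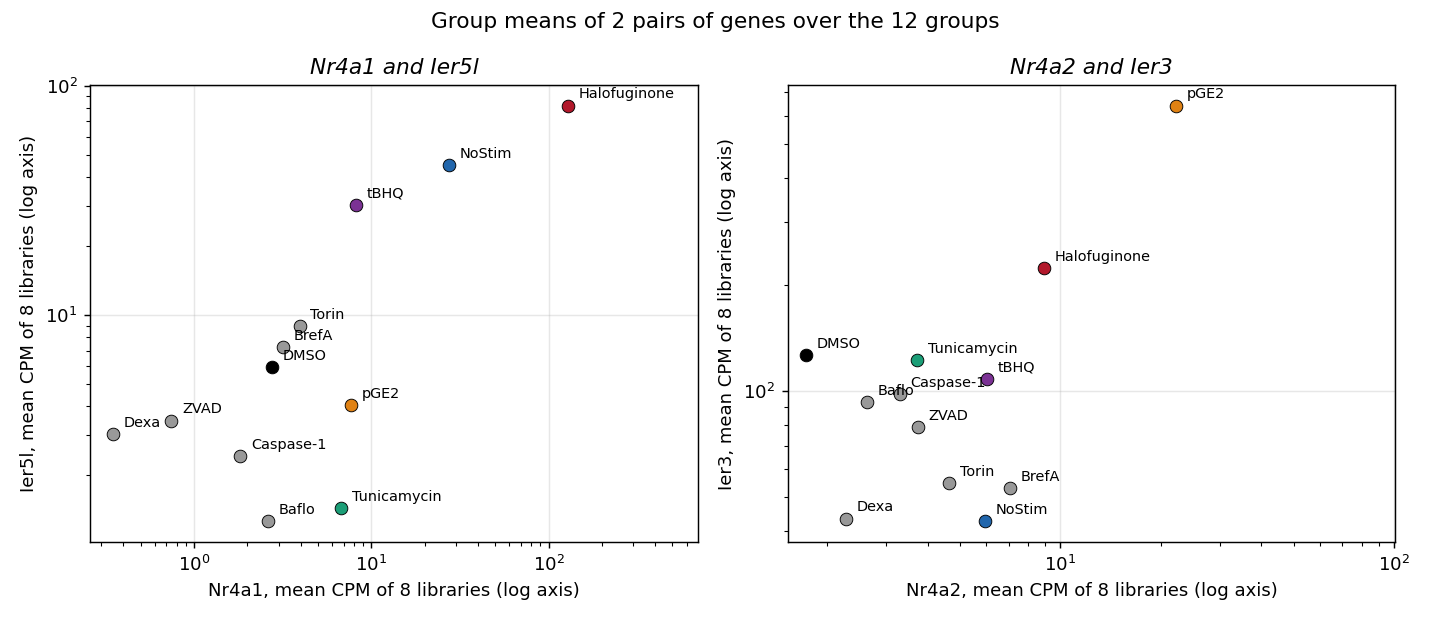
Mean CPM of 8 libraries in each of the 12 groups for Nr4a1 against Ier5l (left) and Nr4a2 against Ier3 (right), on logarithmic axes. At the left, Halofuginone, NoStim and tBHQ have the 3 highest means for both genes. For Nr4a1 the tBHQ mean of 8.2 CPM is close to that of pGE2, at 7.72, and their ranges overlap. At the right, pGE2 is the highest for both, at 22.2 CPM for Nr4a2 and 642 for Ier3.

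Among 4922 genes with at least 30 CPM in some group, the nearest to each member by this r were named. They were Szrd1 for Egr1 (0.959, and 0.821 without Halofuginone), Mdfic for Egr2 (0.960 and 0.913), and Btg2, an antiproliferative immediate early gene, for Nr4a1 (0.954 and 0.772). Mark3 was nearest to Ier2 (0.877 and 0.449), Dgat1 to Ier3 (0.796 and 0.80), the stress cytokine gene Gdf15 to Ier5 (0.846 and 0.805) and Dnmt1 to Ier5l (0.939 and 0.914). These are the highest of many values over only 12 points, and nothing is read from them.

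Other immediate early genes were described as well. The gene lists here and below were chosen with earlier results of these data known, and the count filter used these libraries too. Their counts of calls are therefore not independent evidence. Of 36 other immediate early genes listed, 26 were tested. With Halofuginone 23 of them were higher and 0 lower, with a median log2 fold change of 1.46 against -0.20 for all genes, of which 40.3% were called and 15.3% were higher. Jun (4.45 ± 0.26, adjusted p = 2.05e-27) and Fos (3.89 ± 0.29, adjusted p = 5.86e-21), which together form the AP-1 factor, led them. With Torin 15 were higher and 1 lower (median 0.60 against -0.02), where 16.7% of all genes were called and 9.61% were higher, led by Plk2 (1.97 ± 0.24), a stress-induced kinase gene. With tBHQ 8 were higher and 9 lower, where 36.4% of all genes were called, the highest being Fos (3.41 ± 0.27) and the lowest Dusp2, a MAP kinase phosphatase gene (-4.00 ± 0.19). pGE2 had 7 higher and 5 lower (11.2% of all genes called), LPS 12 and 8 (36.1%), Dexa 4 and 5 (3.57%), BrefA 5 and 4 (17.3%), Tunicamycin 2 and 0 (4.37%), Caspase-1 1 and 0 (2.9%), and Baflo and ZVAD 0 and 0 (0%).

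Between DMSO wells with LPS and NoStim wells these other genes differed both ways, as the members did. Dusp2 (4.02 ± 0.19) and Nfkbiz (3.08 ± 0.19) were the highest, while Fos (-3.06 ± 0.27) and Zfp36l1 (-2.79 ± 0.25) were the lowest. Genes of the ERK pathway that acts upstream of Egr genes, 15 tested of 25 listed, gave 3 higher and 3 lower with Halofuginone, including Spry2, an ERK feedback inhibitor (1.49 ± 0.47), and Map3k8, the kinase that links LPS sensing to ERK (-1.27 ± 0.34). Nothing is read from 6 calls of 15, since 40.3% of all genes were called. With tBHQ 4 were higher and 4 lower, where 36.4% of all genes were called, with Spry2 at 1.86 ± 0.33 and Map3k8 at -2.07 ± 0.26. Of the cyclic AMP pathway, 12 tested of 20 listed, 2 were called with pGE2, near the 11.2% of all genes called: Pde4b, a cyclic AMP phosphodiesterase gene, was higher (0.48 ± 0.12) and Ptger4, a prostaglandin E2 receptor gene, lower (-0.95 ± 0.27).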

How the data were processed

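The authors deposited 1 table of raw counts, by gene symbol, for 96 libraries of transcript 3′ ends prepared by SCRB-Seq with changes, per the labels. BWA and mm10 are named in the submitters' processing notes, with no BWA version. Annotation, strand and collapse of PCR copies were not given in the sources used here, so counts may not be independent molecules. Library totals ran from 80196 to 379198 counts. The 9 genes and the gene lists were chosen with earlier results of these data known.

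All 96 libraries entered 1 fit in edgeR 4.0.16 (R 4.3.3) with group and plate: TMM scaling, a filterByExpr filter that left 4963 genes, and two-sided quasi-likelihood F tests with robust dispersions. P-values were adjusted by Benjamini-Hochberg within each of 21 comparisons, with a threshold of 0.05. Errors are SE for log2 fold changes and SD for CPM, which are counts scaled to 1e+06 per library, with no TMM factor. The 10 comparisons with DMSO share its wells. Named genes are the 9 members, the 2 highest and 2 lowest called genes of each list and the most alike genes of each tested member, of which a subset is printed; Egr4 and Nr4a3 were added as family members. Alternatives were RLE scaling, other filters, no plate term, each plate alone, same-named wells summed, a replicate block, only the 2 groups compared, DESeq2 1.42.0, each library left out, Tunicamycin 2F left out, and Rn45s and Lars2 left out. The fit was tested on simulated data. Promoters are from RefSeq (GRCm38.p6) and exons from GENCODE M21. Figures used matplotlib 3.10.9. Marker lists of some other cell types are not reported here.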

Additional observations from a re-analysis of the deposited data

Results flagged for a closer look

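Each of 105 sets of 8 libraries (a gene in a group, with at least 1 count) was searched for a library far from the others, and 20 were found. The rule would flag about 1 in 20 sets by chance if values were normally distributed. That rate does not hold for low counts, since a single count with all other wells at 0 is always flagged. Many of the 20 rest on a few counts, so their number is not set against chance. Those with 5 or more counts were Egr1 in Tunicamycin 2F at 138 CPM (28 counts), Egr1 in Baflo 1G at 28.9 CPM (9 counts), Egr2 in Halofuginone 1G at 210 CPM (18 counts), Egr2 in tBHQ 2F at 28.2 CPM (5 counts) and Nr4a1 in Tunicamycin 2F at 34.5 CPM (7 counts). Low libraries were Egr1 in ZVAD 2E, Nr4a1 in NoStim 2C and Ier5l in tBHQ 1H, each at 0 CPM where the other wells of the group held 11.9 to 21.8, 19.9 to 50.3 and 22.6 to 53.5 CPM. With 3 or 4 counts there were Egr3 in BrefA 2F at 17.5 CPM, Nr4a2 in Dexa 2F at 11.6 CPM and in Baflo 1F at 11 CPM, and Ier5l in pGE2 1G at 13.7 CPM and in Baflo 1H at 10.1 CPM. Nr4a1 in ZVAD 1G was at 5.94 CPM from 2 counts. Single counts, with all other wells at 0, were Egr3 in Dexa 2F (3.86 CPM), Torin 1E (5.2), pGE2 2F (3.68), Caspase-1 2F (3.17) and Halofuginone 2E (9.22), and Nr4a1 in Dexa 2G (2.79).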

How the results depend on the processing

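No called value changed sign under any alternative run. Calls among the 7 tested genes moved by over 1.5 times in these settings. With tBHQ, 5 calls became 3 on plate 1 alone, 3 on plate 2 alone, 1 in the fit of only the 2 groups compared, and 3 to 5 with a library left out (3 without DMSO 1H, DMSO 2H or tBHQ 1H). With pGE2, 2 became 1 on plate 2 alone. With Tunicamycin, 2 became 0 on plate 2 alone and 1 in the fit of only 2 groups. LPS went from 3 to 1, and Halofuginone from 7 to 4, in that fit. The pairs called against NoStim went from 41 to 24 on plate 2 alone and to 14 in the fit of only 2 groups. That fit filters on 16 libraries and tests fewer of the members, and a plate alone holds 48 libraries. With a library left out, calls ran from 3 to 4 for LPS, 2 to 3 for Torin and for pGE2, and 39 to 42 for the pairs against NoStim, and did not move for the other compounds. Deviations of wells with the same plate and letter in another group had a mean correlation of 0.069 (lowest -0.476). Of these 440 pairs, 184 were over 0.1. For another letter on the same plate the mean was -0.023, and 263 of 1320 pairs were over 0.1. That value is no separate baseline. Deviations were taken from the mean of the 4 wells of a group and plate, which ties it to the same-letter mean. By the mean of 0.069, wells of 1 letter were weakly alike across groups, and the main fit left this out. In a fit with the replicate block, 59 of 60 values kept their side of the threshold and Ier5 with pGE2 passed (0.47, adjusted p = 0.0459). Same-named wells of the 2 plates correlated more (mean r 0.233), and with those wells summed 144 of 147 values kept their side. Depth limits Egr3 and Nr4a2 most, since 1 count was worth about 10.4 CPM in a Halofuginone library.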
